A study of Homo sapiens with 9 samples.

Results

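The ZNF genes, the largest family of human transcription factor genes, were followed in uCaco-2, the undifferentiated state of the colon adenocarcinoma line Caco-2. Their members were taken as the rows of the count table whose symbol is ZNF with a number and at most 1 letter, with a mean raw count of at least 300 over the 9 libraries. ZNF395 was left out by this rule. It kept 134 genes of 559 with such a symbol and of 60591 symbols in all, and all 134 passed the expression filter, as did 424 ZNF symbols and 15944 genes in total. Next to the limit lay ZNF720 with a mean count of 299.4 outside it and ZNF623 with 303.1 inside it. Cells received for 24 h either 300 µM CoCl2 (cobalt chloride), 5 µM OD (an oxyquinoline derivative) or fresh medium. The labels state that OD was dissolved in DMSO and that the CoCl2 and control media were given 0.5% DMSO for this reason. From the stock strength given, 5 µM OD by itself brings less DMSO than 0.5%. The effect of any difference in DMSO between the media was not tested. Both agents were used as chemical activators of the HIF pathway of the hypoxic response. Each condition had 3 biological replicates, of 1 cell line only, and p-values measure the spread between these.

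Most ZNF proteins carry rows of C2H2 fingers, short loops in which 2 cysteines and 2 histidines hold a zinc ion and whose outer residues read DNA bases. Many also carry a KRAB domain (Krüppel-associated box), which binds the corepressor TRIM28 and so brings histone methylation and deacetylation to the sites the fingers choose, often inside transposable elements. These KRAB genes arose by repeated duplication and lie in tandem groups, chiefly on chromosome 19. Other ZNF proteins have no such domain and act in ribosome assembly, RNA processing, mitosis or activation of promoters.

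One finger repeat with its linker is shown from each of 3 KRAB members of chromosome 19 that stood apart below: the member that rose most with CoCl2 after ZNF280A (ZNF823), the one that fell most on that chromosome (ZNF480) and the one called with OD but not with CoCl2 (ZNF160). Capitals mark the codons of the 2 cysteines and 2 histidines. The repeats lie on GRCh38 at chr19:11722955-11723038 (minus strand), chr19:52321947-52322030 (plus strand) and chr19:53069676-53069759 (minus strand), inside coding exons.
ZNF823: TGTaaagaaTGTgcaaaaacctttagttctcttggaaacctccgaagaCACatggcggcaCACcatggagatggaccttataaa
ZNF480: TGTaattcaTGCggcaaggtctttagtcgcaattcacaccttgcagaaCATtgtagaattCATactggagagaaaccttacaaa
ZNF160: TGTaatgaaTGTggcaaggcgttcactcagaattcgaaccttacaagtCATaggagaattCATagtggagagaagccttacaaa
Of the 84 bases, 65 were identical between ZNF480 and ZNF160, 48 between ZNF823 and ZNF160 and 45 between ZNF823 and ZNF480. The first pair lies in the same tandem group, and the values of its 2 genes went different ways.

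With CoCl2 the 134 ZNF members were shifted towards higher levels relative to genes of like abundance, and with OD they were close to them. In uCaco-2 with CoCl2, 36 of the 134 members were upregulated (26.9%) and 15 were downregulated (11.2%). A call here is a gene that passed edgeR's quasi-likelihood test at 0.05 after Benjamini-Hochberg adjustment and whose log2 fold change was beyond 1 or -1. Over all tested genes the same rule called 19.9% higher and 23.4% lower, and over the 6761 other genes with a mean count from 300 to that of the highest member it called 17.7% higher and 17.7% lower. Thus the members had a larger share of rises and a smaller share of falls than either background, as a description without a test. The count rule itself raised the share of rises. Of the 36 rises, 11 came from 20 members with a control mean under 300, which passed the limit through treated libraries. None of these 20 was called lower. Of the other 114 members 21.9% were called higher and 13.2% lower, with a median log2 fold change of 0.12. Of the 289 tested ZNF symbols under the count limit, 21.5% were called higher and 20.1% lower with CoCl2. Their median log2 fold change was 0.05, against -0.05 for all tested genes. No genes of like abundance were set beside these 289, so whether they share the shift was not tested. The shift is given for the members alone. With OD the median of the 289 was 0.11. At an adjusted p under 0.05, 32.5% of them rose and 14.9% fell with OD, against 32.3% and 33.3% of all genes. In bulk libraries a change in the number of cells that express a gene and a change in its level per cell cannot be told apart. At an adjusted p under 0.05 alone, 77 members rose and 41 fell, and 16 did neither, where 40.4% of all genes rose and 42.8% fell. Of genes of like abundance 46.4% rose and 43.9% fell. The libraries of the groups did not overlap for 114 members, which is 85.1% against 83.4% of all genes and 90.1% of genes of like abundance.

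The median log2 fold change of the members with CoCl2 was 0.32, with quartiles of -0.35 and 1.13, where genes of like abundance had 0.03 and all tested genes had -0.05. The direction of this median depended on the scaling. The CoCl2 libraries gave 21.7% to 22.3% of their counts to their 50 most abundant genes, against 15.7% to 16.2% in the other 6, and had TMM factors of 0.770 to 0.795 against 1.11 to 1.15. The mitochondrial share of counts was 5.98% to 6.21% in control libraries, 6.91% to 7.19% under CoCl2 and 4.88% to 5.01% under OD, and the part of these shifts in the ZNF values was not tested beyond the scalings. TMM corrects for a shift in composition. With library size alone the median of all genes fell to -0.55, a change of -0.50, and that of the members to -0.19. This scaling called 21 members higher (15.7%) and 29 lower (21.6%), against 11.5% and 36.6% of all genes. Of genes of like abundance it called 8.08% higher and 31.4% lower. The distance between the members and the genes of like abundance was 0.29 under both scalings. It could not differ, because a change of scaling moves all genes by nearly the same amount. The changes below are relative to the TMM reference. As a share of raw counts, the 134 genes took 0.470% to 0.493% in control libraries, 0.513% to 0.520% with CoCl2 and 0.492% to 0.511% with OD. This sum includes 20 members whose control mean lay under 300, and for the other 114 the control (0.443% to 0.464%) and CoCl2 libraries (0.456% to 0.465%) overlapped, a split made after the data were seen. The raw share of the median member changed by -0.24, -0.08 and -0.16 on the log2 scale in the 3 CoCl2 libraries.

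**Figure D1:**
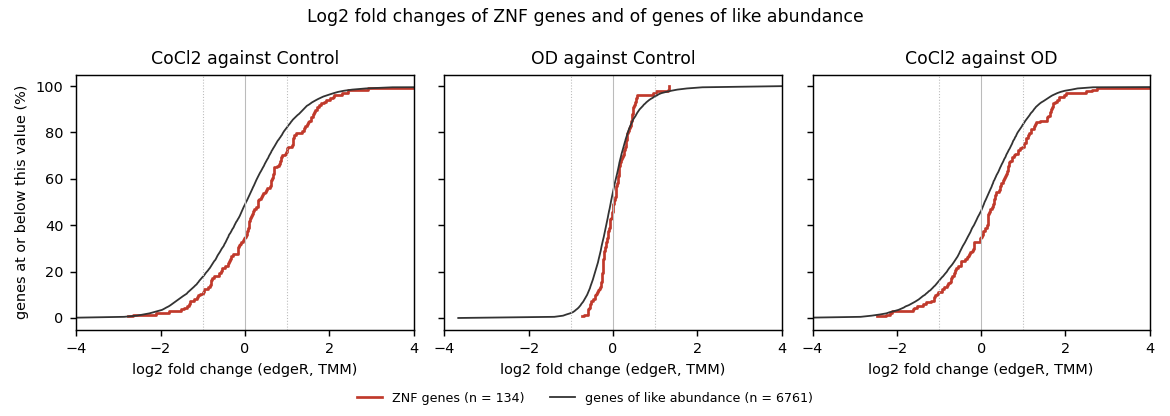
Each curve gives the percentage of genes (y axis) at or below a log2 fold change (x axis, TMM scaling) for the 134 ZNF genes (red) and the 6761 genes of like abundance (black), in each of the 3 comparisons. The red curve lies to the right of the black one with CoCl2 against Control (medians 0.32 and 0.03) and against OD (0.30 and 0.08), and near it with OD against Control (0.03 and -0.05). With library size alone the first 2 ZNF medians were -0.19 and -0.24.

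The same distance was found in each library. The median log2 change of the members against the control mean, minus that of genes of like abundance, was 0.27, 0.39 and 0.29 in the 3 CoCl2 libraries. It was 0.07, 0.07 and 0.10 in the OD libraries, and -0.01, 0.02 and -0.01 in the control libraries themselves. All 3 CoCl2 libraries were thus above all 3 OD libraries, and these above all controls. The rule itself favours genes that are high in 1 condition, because it takes the mean over all 9 libraries. Of the 134 members, 20 had a control mean under 300, and each of these had a positive log2 fold change with CoCl2, from 0.19 to 4.88. With members and comparison genes both chosen on the control libraries (122 ZNF genes), the median with CoCl2 was 0.10, which is 0.14 above genes of like abundance, and with OD it was -0.06, or 0.02 above them.

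**Figure D2:**
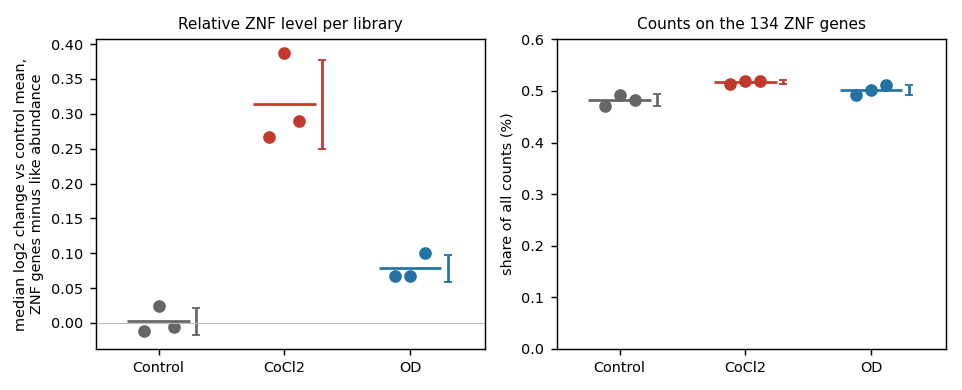
Dots are libraries, horizontal lines the means and bars the SD of 3 libraries per condition. Left, the y axis is the median log2 change of ZNF genes against the control mean minus that of genes of like abundance (-0.01 to 0.02 in Control, 0.27 to 0.39 with CoCl2, 0.07 to 0.10 with OD). Right, it is the percentage of all counts on the 134 genes (0.470% to 0.493% in Control, 0.513% to 0.520% with CoCl2 and 0.492% to 0.511% with OD, a sum that includes 20 members with a control mean under 300).

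The largest rise belonged to ZNF280A, on the minus strand of GRCh38 at chr22:22513736-22520270. Its level, in CPM (counts divided by the TMM-adjusted library total), was 6.67, 6.23 and 6.28 in control libraries, 195, 190 and 179 with CoCl2 and 10.0, 8.21 and 7.51 with OD. The CoCl2 libraries were far above the other 6, and the OD libraries slightly above the controls. CoCl2 raised it 29.4-fold, a log2 fold change of 4.88 ± 0.07 (SE, n = 3 against 3; adjusted p = 2.33e-56, edgeR), and OD by 0.43 ± 0.11 (adjusted p = 0.000284, edgeR).

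ZNF823, a KRAB gene with 15 fingers, had 20.0, 19.9 and 19.2 CPM in control libraries, 158, 150 and 142 with CoCl2 and 27.9, 26.4 and 26.4 with OD. On the log2 scale it rose by 2.93 ± 0.06 with CoCl2 and by 0.45 ± 0.07 with OD. ZNF430, also a KRAB gene, had 8.34, 8.43 and 9.48 CPM in control libraries, 45.7, 44.3 and 39.9 with CoCl2 and 12.4, 12.4 and 12.5 with OD (log2 fold changes of 2.30 ± 0.08 and 0.51 ± 0.09). For both genes the 3 conditions did not overlap, with CoCl2 highest and OD between.

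Other large rises were in genes with no KRAB match. ZNF473, a component of the machinery that processes the 3' ends of histone messengers, had 35.8, 35.5 and 35.6 CPM in control libraries and 208, 184 and 194 with CoCl2 (log2 fold change 2.46 ± 0.05). With OD it had 29.7, 29.0 and 29.1 CPM, all below the controls (-0.28 ± 0.06). ZNF143, an activator of many promoters including those of small nuclear RNA genes, had 20.7, 19.9 and 19.9 CPM in control libraries, 121, 106 and 105 with CoCl2 and 18.4, 16.8 and 18.1 with OD. CoCl2 changed it by 2.45 ± 0.06 and OD by -0.18 ± 0.07 (adjusted p = 0.0266, edgeR) on the log2 scale. ZNF408, which is linked to inherited retinal disease, went from 18.6 to 19.5 CPM in control libraries to 81.0 to 83.6 with CoCl2 (2.11 ± 0.06), while its OD libraries (19.1 to 21.3 CPM) overlapped the controls. All 6 of these rises were called under library size alone too, at 1.61 to 4.37.

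The 8 largest falls with CoCl2 reached 6.83-fold. ZNF512B, which is known to bind the NuRD corepressor complex, had 60.1, 61.2 and 58.4 CPM in control libraries, 8.27, 7.66 and 10.0 with CoCl2 and 50.5, 47.0 and 49.1 with OD. It fell by 2.77 on the log2 scale with CoCl2 (SE 0.08, adjusted p = 1.83e-41, edgeR) and by 0.30 with OD. ZNF514, a KRAB gene, had 26.1, 25.8 and 24.2 CPM in control libraries, 4.73, 3.95 and 3.46 with CoCl2 and 18.1, 19.1 and 20.2 with OD (log2 fold changes of -2.66 ± 0.10 and -0.41 ± 0.07). In both genes the CoCl2 libraries were lowest and the OD libraries between, without overlap.

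ZNF623 had 20.6, 22.5 and 19.1 CPM in control libraries, 4.79, 4.02 and 5.30 with CoCl2 and 20.3, 19.7 and 22.7 with OD. It fell with CoCl2 by 2.12 on the log2 scale, while its OD libraries overlapped the controls (0.01 ± 0.08). ZNF629 fell from 39.3 to 44.1 CPM to 9.60 to 13.2 CPM (-1.80 ± 0.08). ZNF480, ZNF268 and ZNF783, 3 KRAB genes, changed by -1.51, -1.45 and -1.36, and ZNF768, which has 10 fingers, by -1.34. Another annotated gene overlaps 29.5% of the exon bases of ZNF783, so that its count is uncertain. ZNF768 lost its call when a trend on GC content was removed (-0.91), and its call against OD was lost with that trend removed (-0.45) and under glmTreat. Every member named among these falls was also called lower in CoCl2 than in OD except ZNF783 (-0.78 ± 0.09).

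**Figure D3:**
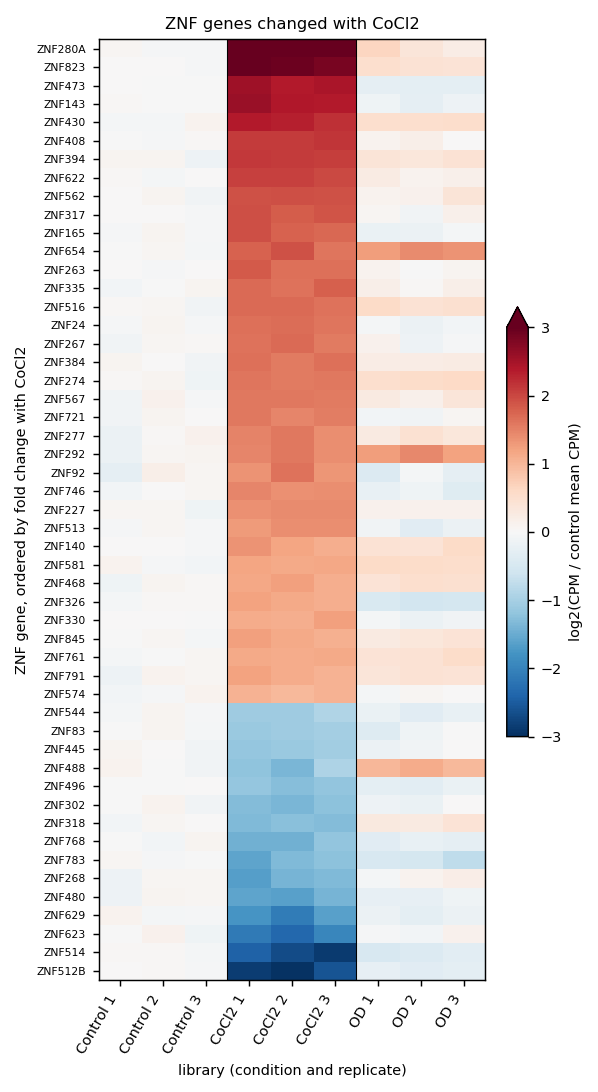
Colour gives log2(CPM / mean control CPM) for the 51 ZNF genes called with CoCl2 (rows, by fold change) in the 9 libraries (columns), on a scale that ends at 3 in size. The 3 CoCl2 columns are alike, 36 rows are red and 15 blue in them, and among the OD columns ZNF654, ZNF292 and ZNF488 are the rows of strong colour. Under library size alone 21 members were called higher (15.7%) and 29 lower (21.6%), against 11.5% and 36.6% of all genes.

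Members with other established roles were described by lists written from textbook knowledge, whose genes under the count limit are not in the counts of members. Of 6 members that act on ribosomes, RNA or the spindle, 4 rose and 0 fell with CoCl2 at an adjusted p under 0.05, and with OD 1 rose and 4 fell. Over all genes 40.4% rose and 42.8% fell with CoCl2, and 32.3% and 33.3% with OD. Scaled by library size, 3 of the 6 rose and 3 fell with CoCl2. The list also held ZNF346 and ZNF385A, under the count limit, which both fell with CoCl2 (-0.52 and -0.32). With OD these 2 had -0.47 and 0.37. ZNF593, also listed, had a count of 0 in all libraries, and ZNF473 was not on the list. ZNF622, a factor in maturation of the large ribosomal subunit, had 56.1, 52.5 and 55.5 CPM in control libraries, 227, 226 and 217 with CoCl2 and 65.0, 58.9 and 61.0 with OD (log2 fold changes of 2.03 ± 0.05 and 0.17 ± 0.05). ZNF326, part of a complex that joins transcript elongation to splicing, had 46.9, 49.9 and 50.4 CPM in control libraries, 114, 108 and 105 with CoCl2 and 35.7, 33.5 and 34.1 with OD. It thus rose with CoCl2 (1.15 ± 0.05) and fell with OD (-0.51 ± 0.06), without overlap, although with library size alone the rise was 0.65 and not called. ZNF207, a kinetochore and spindle protein and the member with the highest mean count, rose by 0.61 ± 0.04, or 0.11 with library size alone. ZNF451, a SUMO ligase, had 0.37 ± 0.06, which turned to -0.13 with library size alone. ZNF598, the ubiquitin ligase of collided ribosomes (0.10 ± 0.06), and ZNF638 (0.08 ± 0.05) did not pass the test with CoCl2, and had -0.41 and -0.43 with library size alone.

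The 2 members from the list of repressors of repeats and imprints went opposite ways with CoCl2. ZNF274, which brings the methyltransferase SETDB1 to the 3' ends of ZNF genes, had 19.5, 20.3 and 17.6 CPM in control libraries, 57.8, 56.3 and 57.3 with CoCl2 and 27.3, 28.2 and 29.0 with OD. It rose with both, by 1.58 ± 0.06 and 0.55 ± 0.07. ZNF445, a guardian of genomic imprints, had 43.1, 41.2 and 37.9 CPM in control libraries, 18.1, 18.7 and 19.7 with CoCl2 and 36.2, 37.9 and 41.3 with OD, and fell with CoCl2 by 1.11 on the log2 scale. The OD libraries of ZNF445 overlapped the controls. Of the listed genes under the count limit, ZNF10 (1.16) and ZNF93 (0.49) rose with CoCl2, and ZNF91 and ZNF808 did not pass the test.

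Among 13 regulators of transcription and chromatin, 7 rose and 5 fell with CoCl2 at an adjusted p under 0.05, while with OD 1 rose and 6 fell, against 40.4% and 42.8% of all genes with CoCl2 and 32.3% and 33.3% with OD. Scaled by library size, 3 of the 13 rose and 9 fell with CoCl2. Besides ZNF143, only ZNF24 was called, a SCAN-domain protein that went from 39.5 to 42.7 CPM in control libraries to 123 to 129 with CoCl2 (1.63 ± 0.05). ZNF148, with 26.5, 29.4 and 31.9 CPM in control libraries and 57.4, 63.7 and 54.8 with CoCl2, lay at the limit (0.999 ± 0.064). ZNF281, a factor of pluripotency and epithelial-mesenchymal transition, had its main change with OD, from 46.1, 54.3 and 51.8 CPM to 31.0, 31.4 and 29.2 (-0.73 ± 0.06), and with CoCl2 it had 0.20 ± 0.06, or -0.30 with library size alone. ZNF609 was lower with both agents (-0.83 ± 0.07 and -0.54 ± 0.06). ZNF217, which is often amplified in carcinomas, kept within 58.5 to 62.0 CPM in all 9 libraries, and library size alone gave -0.51 for it with CoCl2. The remaining 7 of the 13 lay between -0.47 and 0.62 with CoCl2. Of the listed genes under the count limit, ZNF410 (1.96 ± 0.30) and ZNF350 (1.47 ± 0.20) were called higher with CoCl2, ZNF76 (-1.15 ± 0.11) lower and ZNF462 neither. Both rises started near the floor, with 9, 14 and 5 counts of ZNF410 and 33, 24 and 23 of ZNF350 in control libraries.

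With OD, 4 members were upregulated (2.99%) and 0 downregulated, where the rule called 9.09% of all genes and 4.32% of genes of like abundance higher, and 4.16% and 2.14% lower. At an adjusted p under 0.05 alone 49 rose and 44 fell (36.6% and 32.8%, against 32.3% and 33.3% of all genes). Of genes of like abundance 35.3% rose and 42.8% fell, so the members had a smaller share of falls than these. The libraries did not overlap for 88 members (65.7%, against 68.0% of all genes and 79.6% of genes of like abundance). The median log2 fold change was 0.03, with quartiles of -0.23 and 0.31, and 0.07 with library size alone. Hence the changes with OD went both ways in similar numbers and were mostly small.

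ZNF654 and ZNF292 rose with both agents. ZNF654 had 9.41, 9.81 and 9.03 CPM in control libraries, 32.1, 35.4 and 28.8 with CoCl2 and 22.5, 25.1 and 23.9 with OD (log2 fold changes of 1.76 ± 0.08 and 1.34 ± 0.09). ZNF292, a large protein linked to neurodevelopmental disorders, had 38.8, 45.8 and 46.7 CPM in control libraries, 120, 132 and 115 with CoCl2 and 105, 119 and 100 with OD (1.48 ± 0.07 and 1.30 ± 0.07). Its CoCl2 and OD libraries overlapped, and with library size alone its rise with CoCl2 was 0.98. The comparisons of CoCl2 and of OD share the same 3 control libraries.

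ZNF160, a KRAB protein with 20 fingers known to repress TLR4 in intestinal epithelial cells, was the member called with OD and not with CoCl2. It had 27.0, 25.002 and 28.4 CPM in control libraries, 46.0, 40.6 and 43.1 with CoCl2 and 64.5, 65.7 and 70.6 with OD. The 3 conditions did not overlap and OD was highest (1.32 ± 0.06, against 0.70 ± 0.06 with CoCl2). Set directly against OD, CoCl2 gave -0.63 ± 0.06 (adjusted p = 1.89e-15, edgeR).

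ZNF488, a partner of OLIG2 in oligodendrocyte differentiation, was called in opposite directions. It had 23.4, 21.4 and 20.3 CPM in control libraries, 9.33, 8.43 and 11.4 with CoCl2 and 43.1, 46.7 and 42.8 with OD. The OD libraries were all above and the CoCl2 libraries all below the controls. The log2 fold change was -1.14 ± 0.09 for CoCl2, 1.03 ± 0.07 for OD, and -2.16 ± 0.08 (adjusted p = 4.09e-34, edgeR) between the agents. The call with OD lay near the limit of 1 and was lost without control replicate 3 (0.98) or OD replicate 2 (0.99).

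In the direct comparison of CoCl2 with OD, 35 members were higher (26.1%) and 15 lower (11.2%) with CoCl2, against 17.5% and 23.8% of all genes. Genes of like abundance had 16.3% and 16.0%. At an adjusted p under 0.05 alone, 79 were higher and 43 lower, against 40.2% and 43.2% of all genes and 48.4% and 41.8% of genes of like abundance. The members' median was 0.30. It lay 0.22 above that of genes of like abundance, a distance that the choice of scaling hardly moves by construction. With library size alone it was -0.24, with 20 members called higher (14.9%) and 33 lower (24.6%). That scaling called 8.47% of all genes higher and 37.8% lower, and 5.61% and 30.3% of genes of like abundance. The libraries did not overlap for 123 members (91.8%, against 83.8% of all genes and 90.5% of genes of like abundance). The 4 largest rises were ZNF280A (4.44 ± 0.07), ZNF473 (2.74 ± 0.05), ZNF143 (2.64 ± 0.06) and ZNF823 (2.48 ± 0.05).

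By position, 42 of the 134 members (31.3%) lay on chromosome 19, where 5.30% of the protein-coding genes of like abundance lay. With OD the median of these 42 was 0.23 on the log2 scale, with 23 raised (54.8%) and 9 lowered (21.4%) at an adjusted p under 0.05. The other 92 had -0.02, with 26 raised (28.3%) and 35 lowered (38.0%). Of all genes 32.3% were raised and 33.3% lowered, and of genes of like abundance 35.3% and 42.8%. Other genes of like abundance on chromosome 19 had -0.06 (n = 352), with 35.2% raised and 42.6% lowered. With CoCl2 the medians were 0.66 on chromosome 19 and 0.20 elsewhere, against 0.05 for the other genes of that chromosome. Scaled by library size, the CoCl2 medians were 0.15 on chromosome 19 and -0.30 elsewhere.

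The largest tandem group, with gaps of at most 500 kb between members, held 12 genes at chr19:52064465-53580269 on GRCh38. With OD, 10 of the 12 rose and 2 fell at an adjusted p under 0.05 (ZNF480, -0.21, and ZNF83, -0.18), where 32.3% of all genes rose and 33.3% fell, and the median was 0.47. ZNF841 had 14.8, 18.1 and 17.7 CPM in control libraries, 32.3, 31.3 and 36.8 with CoCl2 and 30.9, 32.5 and 34.03 with OD (0.99 ± 0.08 and 0.94 ± 0.07). ZNF320 had 23.3, 27.2 and 26.0 CPM in control libraries, 14.0, 13.5 and 15.9 with CoCl2 and 35.3, 37.6 and 41.7 with OD (-0.81 ± 0.08 and 0.58 ± 0.07). In that gene the agents thus had opposite signs. With CoCl2, 8 of the 12 rose and 4 fell, where 40.4% of all genes rose and 42.8% fell. Their values ran from -1.51 (ZNF480) to 1.15 (ZNF468), so that neighbours of 1 group went both ways. Scaled by library size, 6 of the 12 rose and 4 fell with CoCl2.

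**Figure D4:**
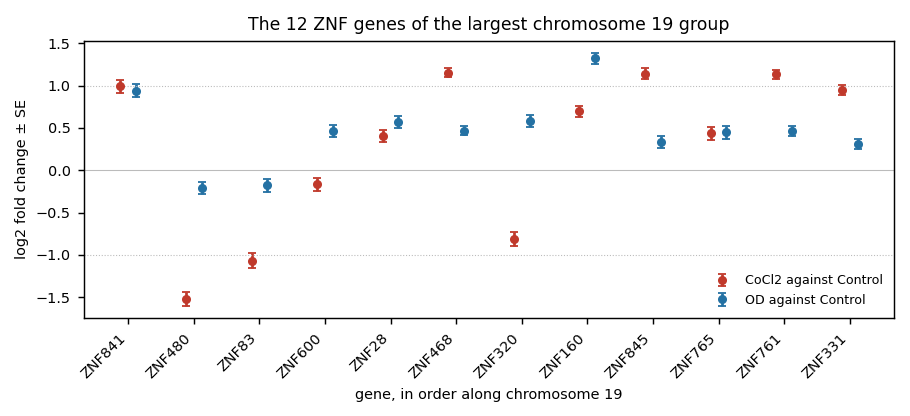
Points are log2 fold changes with CoCl2 (red) and OD (blue) against Control (y axis, bars are SE, n = 3 against 3) for the 12 members of the largest chromosome 19 group in their order on the chromosome (x axis). The OD points lie above 0 for 10 genes, and the CoCl2 points run from -1.51 to 1.15. With library size alone the CoCl2 points lie lower by about 0.50, which takes those of ZNF28 and ZNF765 below 0.

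Of the other groups of at least 4 members, the 6 genes at chr7:149126416-149497817 had a median of -0.67 with CoCl2, with ZNF746 (1.41) and ZNF212 (0.89) higher and the other 4 lower. The 5 genes at chr19:9140397-9675100 had a median of 0.82 with CoCl2, led by ZNF562 (1.91) and ZNF317 (1.88), and ZNF561 was lower (-0.78). ZNF317 went from 34.9 to 36.0 CPM in control libraries to 125 to 136 with CoCl2, and ZNF562 shares sequence with an antisense gene, as given below.

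By protein type, the KRAB pattern was found in 62 members and not in 71. At an adjusted p under 0.05, 32.3% of all genes rose and 33.3% fell with OD. Of genes of like abundance 35.3% rose and 42.8% fell. With OD, 30 of the 62 rose (48.4%) and 13 fell (21.0%), with a median of 0.14. Of the 71, 19 rose (26.8%) and 31 fell (43.7%), a share of falls near that of genes of like abundance, with a median of -0.08. With CoCl2 the medians were 0.37 and 0.32, or -0.13 and -0.19 with library size alone. Members with 10 or more fingers (n = 68) had a median of 0.14 with OD, and those with fewer (n = 65) had -0.11. Across 133 genes of 1 set of libraries, the number of fingers and the log2 fold change with OD had a Pearson's r of 0.26 and a Spearman's rho of 0.31, and with CoCl2 0.01 and 0.05. These splits overlap: 31 of the 62 KRAB members lay on chromosome 19 and 45 of them had 10 or more fingers.

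The distance from genes of like abundance was not even over the members. With CoCl2 it was widest for short transcripts (under 3000 bases), with medians of 0.89 for 29 members and -0.01 for like genes, and narrower for those over 5000 bases, with 0.11 and 0.04. By abundance, like genes with a mean count over 1000 had a median of 0.26, with 21.7% called higher and 11.5% lower. The 22 members with a mean count over 1000 had a median of 1.15, with 12 called higher and 0 lower. That mean includes the CoCl2 libraries, so the choice partly fixes the direction: of the 22 only 9 had a control mean of at least 1000, and 1 of the 12 called was among these. The 12 members with a control mean of at least 1000, a split made after the data were seen, had a median of 0.03. From 300 to 500 counts the medians were 0.12 for 63 members and -0.31 for 1487 like genes. From 500 to 1000 counts they were 0.32 and -0.09. In control libraries the median CPM was 24.2 to 26.2 for members and 45.6 to 45.9 for like genes. The like genes thus share the range of the members but are not matched on abundance within it. By GC content, the medians were 0.37 and 0.19 under 42%, 0.15 and 0.12 from 42% to 50%, and 0.35 and -0.15 above 50%. The members thus lay above like genes in all 6 bands of length and GC content with CoCl2, though by 0.04 in the middle GC band.

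**Figure D5:**
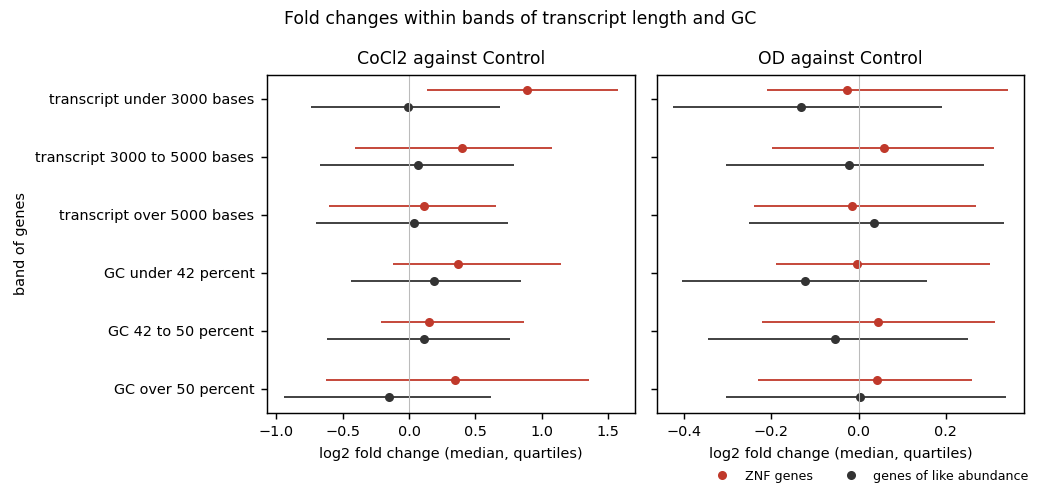
Points are median log2 fold changes (x axis, TMM scaling) of ZNF genes (red) and genes of like abundance (black) within bands of transcript length and GC content (y axis), and lines run from the lower to the upper quartile. With CoCl2 (left) the red medians lie right of the black ones in all 6 bands, most for transcripts under 3000 bases (0.89 and -0.01), and with OD (right, a narrower axis) the medians lie within -0.13 and 0.06. With library size alone all CoCl2 medians lie lower by about 0.50.

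Levels of different genes were compared as CPM per kb of transcript. Without either agent ZNF664 (41.96), ZNF146 (36.1) and ZNF622 (32.1) led the members. Under CoCl2 the order was ZNF622 (131), ZNF280A (87.5) and ZNF823 (62.7), while under OD it was ZNF664 (42.01), ZNF622 (36.1) and ZNF581 (26.1). ZNF280A stood at 2.98 without either. In CPM not divided by length, ZNF207, ZNF664, ZNF106, ZNF638 and ZNF622 had the highest means of the members. ZNF664 ranged from 177 to 187 CPM in control, 159 to 165 with CoCl2 (-0.16 ± 0.04) and 176 to 185 with OD (0.00 ± 0.04). ZNF106 ranged from 148 to 158 CPM in control, 159 to 167 with CoCl2 and 130 to 134 with OD (-0.22 ± 0.04), so that its level was lowest with OD. ZNF146, a protein of little more than 10 fingers, fell with OD from 112, 131 and 119 CPM to 77.2, 79.0 and 84.9 (-0.59 ± 0.05).

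The partners of the KRAB domain were taken from a list of 26 genes, all tested. With OD 20 of them fell and 1 rose (MPHOSPH8, 0.14) at an adjusted p under 0.05, none with a log2 fold change beyond 1, and their median was -0.27. Of all genes 33.3% fell with OD and of genes of like abundance 42.8%. TASOR, a subunit of the HUSH silencing complex, had 78.0, 93.3 and 86.0 CPM in control libraries and 42.8, 46.5 and 46.5 with OD (-0.92 ± 0.06). ATF7IP, the stabilising partner of SETDB1, had 80.2, 86.0 and 85.5 CPM in control libraries, 175, 179 and 175 with CoCl2 and 48.9, 49.3 and 49.6 with OD, so that it rose with CoCl2 (1.07 ± 0.05) and fell with OD (-0.77 ± 0.05).

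With CoCl2, 10 of the 26 rose and 12 fell, with a median of -0.05, where 40.4% of all genes rose and 42.8% fell. Scaled by library size, 5 rose and 20 fell, the median was -0.56 and none was called higher, with ATF7IP at 0.57, MTA2 at 0.88, PPHLN1 at 0.52 and TRIM28 at 0.15. TRIM28, which the KRAB domain binds, had 587, 570 and 617 CPM in control libraries, 956, 895 and 940 with CoCl2 and 556, 551 and 528 with OD (0.65 ± 0.04 and -0.12 ± 0.04). MTA2 and PPHLN1 were called higher (1.39 and 1.02), and MTA1, SUV39H2 and WIZ lower (-1.94, -1.78 and -1.53). Within the NuRD complex the paralogs MTA2 and MTA1 therefore moved in opposite directions.

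Promoters were searched for the core of the HIF binding motif, ACGTG or GCGTG on either strand, in the window from 250 bases before to 50 after the RefSeq start. The table held 115 of the 134 members, of which 83 (72.2%) had a match, against 48.4% of 27305 promoters. ACGTG alone was in 27.8% and 21.6%. The 27305 promoters include those of genes that were not tested here. No share was computed for genes of like abundance, so the difference cannot be credited to the ZNF family. The 250 bases before the start are shown for ZNF292, which rose with both agents, and for ZNF280A, the largest rise with CoCl2, with ACGTG matches of either strand in capitals. They lie at chr6:87155315-87155564 (plus strand) and chr22:22520271-22520520 (minus strand) on GRCh38.p14.
ZNF292: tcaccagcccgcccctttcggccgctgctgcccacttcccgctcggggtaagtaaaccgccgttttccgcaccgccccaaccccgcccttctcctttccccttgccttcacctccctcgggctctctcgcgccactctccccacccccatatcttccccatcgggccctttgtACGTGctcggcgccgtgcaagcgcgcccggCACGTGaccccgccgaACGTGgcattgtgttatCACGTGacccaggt
ZNF280A: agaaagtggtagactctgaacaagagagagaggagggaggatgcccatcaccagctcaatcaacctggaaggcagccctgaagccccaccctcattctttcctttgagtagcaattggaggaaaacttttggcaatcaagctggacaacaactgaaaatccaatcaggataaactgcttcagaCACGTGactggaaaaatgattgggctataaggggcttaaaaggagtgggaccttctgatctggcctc
ZNF292 had 6 matches in 4 blocks and ZNF280A 2 matches in 1 block. The block CACGTG reads the same on both strands and so counts as 2 matches, and it is also the E-box of other factors. The ZNF160 window held no match. These are descriptions of letters, and no binding was measured.

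ZNF395, left out of the members, had a mean of 35.2 CPM in the control libraries, 11.6 CPM under CoCl2 and 55.5 CPM under OD, the order seen in ZNF488. Other C2H2 genes with a mean count of at least 300 gave a median with CoCl2 of 1.11 for 17 ZBTB genes (10 called higher, 1 lower), 0.91 for 12 KLF and SP genes and 0.12 for 7 ZSCAN and ZKSCAN genes. Scaled by library size, these medians were 0.61, 0.41 and -0.39. The 5 ZFP genes had a median of 0.63, or 0.12 by library size, with 1 called higher and 2 lower. Of all genes 19.9% were called higher and 23.4% lower, and of genes of like abundance 17.7% and 17.7%. The mean over all 9 libraries favours genes high in 1 condition here too. Without the count limit the medians were 0.34 for 38 ZBTB genes (14 called higher, 7 lower) and 0.57 for 20 KLF and SP genes. They were 0.05 for 20 ZSCAN and ZKSCAN genes and 0.51 for 13 ZFP genes (3 higher, 6 lower).

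Related sequences limit some values. Of all 75-base windows of a member's exons, the share also found in another gene had a median of 0.170%, and 9 members had 25% or more. Among those called with CoCl2, these were ZNF140 (81.4%, with ZNF891), ZNF562 (50.02%, with ZNF561-AS1), ZNF263 (48.7%), ZNF384 (46.4%) and ZNF514 (31.8%), and the counts of these genes are uncertain. The labelled cell type was checked by 10 epithelial markers, of which 9 were tested, among them EPCAM, CDH1 and KRT8, and CDX1 was at 0. VIL1, a marker of the brush border, changed by -2.45 with CoCl2 and KRT20, an intestinal keratin, by -1.44, and their part in the ZNF values was not tested. The summed level of the epithelial markers was 12380 to 12977 CPM in control, 10472 to 11238 with CoCl2 and 12134 to 12635 with OD. The summed fibroblast, immune and endothelial markers reached at most 38.3, 67.2 and 3.97 CPM in any library, with 4 of 7, 3 of 6 and 2 of 4 of these markers tested. PTPRC, COL1A2 and DCN did not pass the filter. With OD, CSF1R was higher (2.08, from 4.27 to 4.82 CPM in control to 19.2 to 19.5), as was LUM (1.78), and their part in the ZNF values was not tested.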

How the data were processed

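Messenger RNA libraries (poly(A)-selected, stranded, single-end reads of 75 bases) of 9 uCaco-2 samples were used. The authors checked reads with FastQC 0.11.9, trimmed them with cutadapt 2.10 and mapped them on GRCh38 with STAR 2.7.5b, the versions given in the submitters' processing notes. The deposited values are raw counts per gene symbol, without normalization. The counting tool, its strand setting and its treatment of reads that fit several genes are not given in the sources used here, so reads of near-identical or overlapping genes may be split or shared. Total counts per library were 15998136 to 24209427.

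TMM factors were computed with edgeR 4.0.16 (R 4.3.3), whose expression filter left 15944 symbols. All 9 libraries entered 1 robust quasi-likelihood fit, from which log2 fold changes and standard errors were taken, with Benjamini-Hochberg adjustment over all genes tested. CPM were scaled by TMM. The fits were first tested on simulated data. Coordinates came from GENCODE release 44, and fingers and the KRAB pattern were found by text patterns in its translated canonical coding sequences. Promoters came from RefSeq (GRCh38.p14). Genes of like abundance were tested genes other than members with a mean raw count from 300 to 3630, the highest mean of a member.

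The members and gene lists were chosen with earlier results of these data known, so no test was made over them. Named genes were the 8 largest falls and 6 largest rises with CoCl2 among called members without overlap, the called members with OD (at most 5 each way), the 4 and 4 largest between CoCl2 and OD, the 5 of highest mean CPM, the role lists, neighbours of the count limit, ZNF395 and the KRAB partners. Members named for their position (the tandem groups), ZNF146 and ZNF581 were chosen after their values were seen. Alternatives were DESeq2 1.42.0, other scalings and filters, 6 libraries, a replicate block, each replicate left out, glmTreat, thinning, GC and length trends, and other member rules.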

Additional observations from a re-analysis of the deposited data

How the results depend on the processing

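Each called fold change of a named member kept its sign under every alternative run. The counts of called members stayed within 1.5 times under DESeq2, RLE factors, both count filters, 6 libraries, glmTreat, thinning, the trends of GC and length and each replicate left out. With library size alone 29 were lower and 21 higher with CoCl2, and 33 and 20 against OD. Of all genes 36.6% were then lower and 11.5% higher with CoCl2, and 37.8% and 8.47% against OD. The members' medians became -0.19, 0.066 (OD) and -0.24 (CoCl2 against OD). That scaling shifts all genes by construction. Upper-quartile factors gave 0.22, 0.057 and 0.17, no count filter 0.25 and, against OD, 0.24, and removal of the GC trend 0.17 against OD. The adjusted p alone gave 41 lower and 77 higher with CoCl2, 44 and 49 with OD, and 43 and 79 between them. With a mean count of at least 100 there were 283 members, 35 lower and 66 higher with CoCl2 (median 0.20), 1 lower with OD (0.068), and 36 and 57 against OD (0.16). These 283 include the 4 members called higher with OD, and further rises with OD are not given. With a mean count of at least 1000 there were 22, 0 lower and 12 higher (1.15), 1 higher with OD, and 0 and 11 against OD (0.98). Of all genes 23.4% were called lower and 19.9% higher with CoCl2. With OD these shares were 4.16% and 9.09%, and against OD 23.8% and 17.5%. Chosen on control counts, 122 members had medians of 0.10, -0.059 and 0.16, and 1 was lower with OD. Rises with OD are not given for this set.

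The labels number the replicates alike in each condition, but same-numbered libraries correlated by -0.06 to 0.16 in their deviations, so that the numbers were not taken as pairs. With the replicate number as a block, 15 were lower and 37 higher with CoCl2 (median 0.32), 0 and 4 with OD (0.02), and 15 and 35 against OD (0.30), and among the named members it changed the call of ZNF148 alone, to higher with CoCl2 (1.00). Of the calls of named members, those of ZNF148, ZNF274, ZNF292, ZNF326, ZNF445, ZNF488 and ZNF768 were lost in at least 1 comparison under at least 1 alternative. Besides ZNF488, single libraries decided the calls between CoCl2 and OD of ZNF445 (-0.99 without CoCl2 replicate 1, -0.98 without OD replicate 3) and ZNF274 (0.99 without OD replicate 1). Leaving out members that share 25% or more of their windows, keeping those with 3 or more fingers and adding ZNF395 were chosen after seeing the data, and gave medians with CoCl2 of 0.32, 0.36 and 0.32. Depth limits little here, since each member has a mean of at least 300 counts, and intervals from counts would cover counting error only.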
